A study of Mus musculus with 2 samples.

Results

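The genes described are 10 members of the TNF superfamily of ligands and receptors, chosen by name for their part in building lymphoid tissue and in keeping B cells and plasma cells alive: Tnf, Lta, Ltb, Ltbr, Tnfsf11, Tnfrsf11b, Tnfsf13b, Tnfsf13, Tnfrsf13c and Tnfrsf17. All 10 were found among the 32285 genes counted. They were read in 2 single-cell RNA libraries. One holds cells of colotomy mice, whose colon was cut open, and the other holds cells of sham-operated mice. Animals of both groups carry the genotype label B6/C57, were aged 8 to 12 weeks and were sampled on postoperative day 14. Each library pools digested bowel with mesenteric adipose tissue, the fat along the bowel, and the number of animals in a pool is not given in the sources used here. Hashtag antibodies mark the tissues, but their log2 ratio (hashtag 1 over hashtag 2) had about the same median in goblet-like cells as in all kept cells, at 2.82 and 2.62 in the colotomy library and -1.11 and -1.33 in the sham library. Goblet cells belong to the bowel, so tissue was not assigned to cells.

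TNF superfamily ligands are mostly made as membrane proteins and signal through trimers of their receptors, many of which switch on NF-kappaB. Tnf, Lta and Ltb act in inflammation and in lymphoid tissue, where lymphotoxin of lymphocytes acts on Ltbr of stromal cells. Tnfsf13b (BAFF) and Tnfsf13 (APRIL) are survival factors: Tnfrsf13c (BAFF receptor) serves mature B cells, and Tnfrsf17 (BCMA) serves plasma cells. Tnfsf11 (RANKL) acts in bone and on the follicle epithelium of the gut, and Tnfrsf11b (osteoprotegerin) is its soluble decoy receptor.

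Ltb, Tnf and Lta lie side by side within 10913 bases of mouse chromosome 17 (GRCm38): Ltb at chr17:35194439-35196320 on the plus strand, Tnf at chr17:35199381-35202007 and Lta at chr17:35203165-35205351 on the minus strand. Their promoters are shown because these neighbours were held by different cell classes in the values below. The sequences come from the RefSeq promoter table for GRCm38.p6, run 5′ to 3′ on the strand of each gene, and end at the base before the gene's start. Tnf (chr17:35202008-35202257, minus strand) and Lta (chr17:35205352-35205601, minus strand) are shown over 250 bases, and Ltb (chr17:35194257-35194438, plus strand) over 182. Capitals mark TATAAA or a match to GGNNTTTCC, a core of the NF-kappaB motif chosen after a form longer by 1 base had been searched. Each was searched on both strands, and no window shown holds both.
Tnf: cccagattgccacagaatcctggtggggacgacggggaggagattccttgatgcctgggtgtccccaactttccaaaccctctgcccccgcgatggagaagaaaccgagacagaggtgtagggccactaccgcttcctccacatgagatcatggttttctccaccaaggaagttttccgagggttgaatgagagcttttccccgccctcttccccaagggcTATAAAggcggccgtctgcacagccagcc
Lta: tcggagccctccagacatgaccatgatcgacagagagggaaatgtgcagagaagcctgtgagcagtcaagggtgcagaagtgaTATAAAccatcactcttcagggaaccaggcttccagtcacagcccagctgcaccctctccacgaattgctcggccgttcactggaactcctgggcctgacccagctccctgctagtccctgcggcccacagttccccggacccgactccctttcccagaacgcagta
Ltb: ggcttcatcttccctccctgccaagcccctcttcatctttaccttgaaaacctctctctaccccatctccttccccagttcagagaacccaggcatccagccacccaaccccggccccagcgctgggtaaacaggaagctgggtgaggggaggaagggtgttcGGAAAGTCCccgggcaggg
The Tnf window holds TATAAA starting 29 bases before its end, and the Lta window holds it 167 bases before its end. The Ltb window holds GGACTTTCC on the opposite strand, starting 19 bases before its end. Of 32851 promoters in the table, 12.4% hold TATAAA and 4.93% hold the NF-kappaB core in windows of 250 bases, and 8.45% and 3.56% do so in windows of 182. A match describes letters in a window and is not a binding site. The table held a promoter for 9 of the 10 genes.

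After barcodes with under 500 gene UMIs (unique molecular identifiers, 1 per captured RNA), under 300 genes or at least 20% mitochondrial UMIs were left out, the colotomy library kept 9246 of 15547 barcodes and the sham library 42143 of 44814. Kept cells held 8728608 UMIs in the colotomy library and 70442705 in the sham library, with medians of 778.5 and 1328 per cell, and 108 kept barcodes were found in both. Xist, expressed by female cells, stood at 394 CPM (UMIs of the gene scaled to a fixed total) in the colotomy library and 0.724 CPM in the sham library, and Y-linked genes stood at 156 and 210 CPM. The colotomy library thus holds RNA of both sexes, and sex cannot be told apart from the operation. Clusters of all cells were named from marker lists, which gave 18 classes, called "-like", and 1 cluster left unnamed that was led by Mmp12 and Spp1. T cell-like, B cell-like and germinal centre B-like cells numbered 65, 96 and 204 in the colotomy library and 7698, 11949 and 2226 in the sham library. With 1 library in each group there is no replicate and no test. Levels are CPM of the UMIs summed over a class with exact Poisson intervals at 95%, ratios are colotomy over sham with exact conditional binomial intervals, shares have exact Clopper-Pearson intervals, and all of these cover counting error only.

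**Figure D1:**
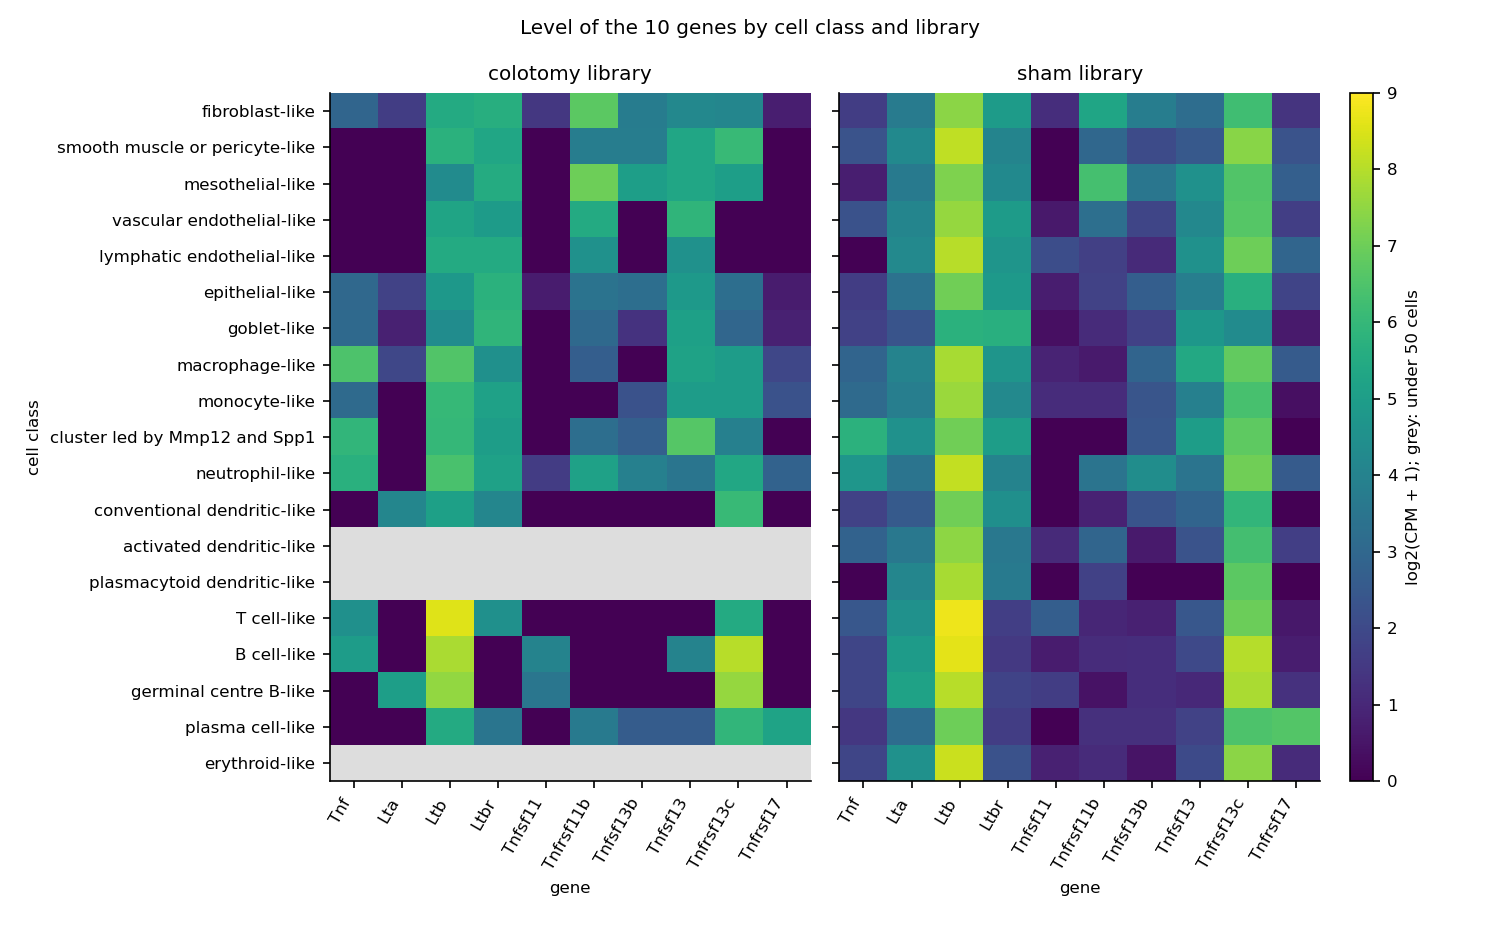
Level of the 10 genes (columns) in each cell class (rows) as log2(CPM + 1), in the colotomy library (left) and the sham library (right), with grey rows for classes of under 50 cells. Ltb and Tnfrsf13c are seen in nearly all classes of the sham library, and Tnfrsf11b is highest in mesothelial-like and fibroblast-like cells, at 129 and 106 CPM in the colotomy library and 79.6 and 38.4 CPM in the sham library.

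RNA of lymphocytes was found in every class of the sham library. The summed level of 10 B cell markers in epithelial-like cells was 8.68% of that in B cell-like cells in the colotomy library and 24.4% of it in the sham library. In smooth muscle or pericyte-like cells it was 26.0% and 67.4%. Summed T cell markers in epithelial-like cells stood at 2.21% of the T cell-like level in the colotomy library and at 12.8% in the sham library. Lta, Ltb and Tnfrsf13c outside lymphocytes are therefore read against these levels. Fewer cells of a type and less RNA per cell cannot be told apart in the totals over all cells, which are not compared for these genes.

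Tnf, the inflammatory cytokine that macrophages release, was higher in macrophage-like cells of the colotomy library. This class, led as a whole by C1qa, Pf4 and Folr2, had 32 Tnf UMIs in 484 cells or 88.0 CPM (60.2 to 124) in the colotomy library. In the sham library it had 22 UMIs in 1796 cells or 6.40 CPM (4.01 to 9.69). The ratio was 13.8 (7.75 to 24.8), and the intervals of the levels did not overlap. Over all myeloid cells Tnf stood at 51.8 CPM (41.1 to 64.4) in the colotomy library and 7.39 CPM (5.85 to 9.21) in the sham library, a ratio of 7.0 (5.07 to 9.68). Myeloid cells held 64.5% (55.4 to 72.9) of the Tnf UMIs of the colotomy library, where they were 19.0% of cells, and 32.6% (26.8 to 38.9) of those of the sham library, where they were 12.2%.

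Clusters drawn at a finer resolution divided the macrophage-like cells. Most Tnf UMIs of the class in the colotomy library lay in cells led by Lyz1, the gene that also led the monocyte-like class. Cells of a cluster led by Lyz1 had 27 Tnf UMIs in 193 cells or 185 CPM (122 to 270) in the colotomy library and 5 UMIs in 61 cells or 45.5 CPM (14.8 to 106) in the sham library. Cells of a cluster led by C1qa had 5 UMIs in 278 cells or 24.0 CPM (7.78 to 55.9) in the colotomy library and 17 UMIs in 1726 cells or 5.15 CPM (3.0 to 8.24) in the sham library. The cells led by Lyz1 thus made up more of the class in the colotomy library, and Tnf was higher there within each cluster, with overlapping intervals in the C1qa-led cells. The ratio of the whole class depended on how cells were clustered: it was 6.63 at a coarser resolution, 4.59 at a finer one and 5.55 when the 10 genes could enter the clustering.

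Other classes differed less. The cluster led by Mmp12 and Spp1 had 59.7 CPM of Tnf in the colotomy library and 54.0 CPM in the sham library, a ratio of 1.11 (0.520 to 2.47), and held 349 and 96 cells. Neutrophil-like cells had 25 UMIs or 51.1 CPM in the colotomy library and 5 UMIs or 25.3 CPM in the sham library, a ratio of 2.02 (0.759 to 6.76). Monocyte-like cells stood at 7.62 and 7.70 CPM. Tnf of fibroblast-like cells stood at 6.66 CPM in the colotomy library and 2.09 CPM in the sham library, or 7.57% and 32.6% of the macrophage-like level, where summed macrophage markers stood at 6.95% and 3.89%. With each cell thinned to 500 UMIs, 2.27% (1.14 to 4.03) of macrophage-like cells had a Tnf UMI in the colotomy library and 0.334% (0.123 to 0.726) in the sham library; without thinning it was 3.51% and 1.11%. Among fibroblast-like cells the thinned shares were 0.343% (0.177 to 0.599) and 0.145% (0.0626 to 0.286). Median depths were 655.5 and 1581 UMIs in macrophage-like cells and 712 and 1528 in fibroblast-like cells.

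**Figure D2:**
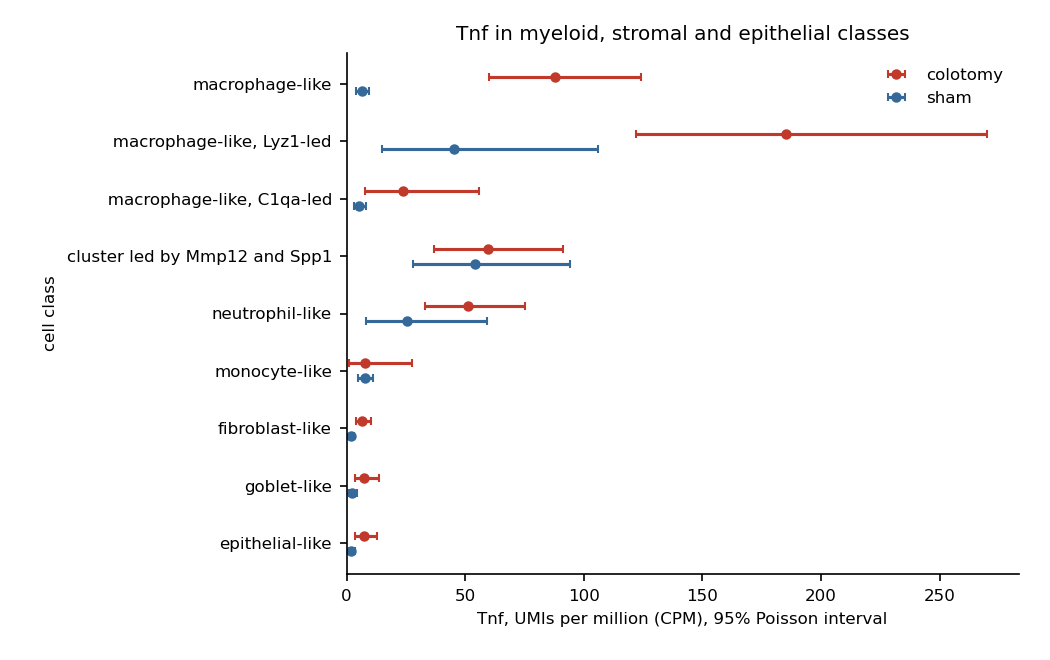
Tnf level in CPM (horizontal) by cell class (rows, with the Lyz1-led and C1qa-led macrophage-like cells also apart), colotomy in red above sham in blue, with exact Poisson intervals at 95%. Macrophage-like cells stand at 88.0 CPM in the colotomy library and 6.40 CPM in the sham library, and the cluster led by Mmp12 and Spp1 at 59.7 and 54.0 CPM.

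Immediate early genes, which many stimuli and also tissue digestion induce, were higher beside Tnf in macrophage-like cells of the colotomy library. The summed level of 14 such genes, a list drawn up after the Tnf values were seen, was 8557 CPM in macrophage-like cells of the colotomy library and 3522 CPM in those of the sham library. Of the 14, counted with no minimum of UMIs, 13 were at least 1.5-fold higher, where 17.7% of all genes with at least 10 UMIs were. In the cluster led by Mmp12 and Spp1, where the Tnf ratio was 1.11, 11 of the 14 were higher, beside 1506 of all 6889 genes measured. The summed level of the 14 there was 7076 and 3687 CPM. In epithelial-like cells it was 1882 and 2184 CPM and in goblet-like cells 1390 and 2046 CPM, where Tnf stood at 7.32 and 2.08 CPM and at 7.53 and 2.35 CPM. It was 5638 and 5137 CPM in neutrophil-like cells and 3329 and 2973 CPM in monocyte-like cells. Their part in the Tnf result was not tested. Xist in macrophage-like cells stood at 319 CPM in the colotomy library and 1.45 CPM in the sham library.

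Receptors of Tnf were read as well, chosen with their values known. Tnfrsf1b, the receptor mainly of immune cells, stood at 165 CPM in macrophage-like cells of the colotomy library and 56.2 CPM in those of the sham library, a ratio of 2.94 (2.16 to 3.95). In fibroblast-like cells it stood at 63.1 and 27.1 CPM. Tnfrsf1a, the broadly expressed receptor, stood at 83.4 CPM in fibroblast-like cells of the colotomy library and 56.7 CPM in those of the sham library, a ratio of 1.47.

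In macrophage-like cells 8 of the 10 members had at least 10 UMIs over both libraries. Tnf was the 1 member at least 1.5-fold higher, where 17.7% of all 11547 genes measured were, and Lta, Ltb, Tnfrsf13c and Tnfrsf17 were lower, where 23.3% were. Those 4 are lymphocyte or plasma cell genes. B cell markers of macrophage-like cells stood at 26.5% of the B cell-like level in the colotomy library and at 42.7% in the sham library. Summed plasma cell markers went the other way, at 3725 CPM in the colotomy library and 2666 CPM in the sham library. The part of RNA from other cells in these lower values was not tested.

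Lta and Ltb together form the membrane lymphotoxin that acts on Ltbr. In the sham library Lta was highest in germinal centre B-like and B cell-like cells, and Ltb was highest in T cell-like cells followed by B cell-like ones. In the colotomy library, which held few lymphocytes, most of their UMIs lay in other cells. B and plasma cells held 6 of the 19 Lta UMIs in the colotomy library and T cells 0, and stromal cells held 6 and epithelial cells 5. In the sham library B and plasma cells held 46.7% (44.0 to 49.4) of 1333 Lta UMIs and T cells 17.6%. For Ltb, B and plasma cells held 17.8% (14.3 to 21.7) of 428 UMIs in the colotomy library and 39.2% (38.4 to 39.9) of 18421 in the sham library, and T cells 3.97% and 24.3%. Stromal cells held 32.9% and 15.2% of Ltb, and myeloid cells 27.6% and 11.4%. Of the UMIs of all genes, stromal cells held 37.9% and 21.3% and myeloid cells 17.7% and 15.2%. B and plasma cells held 9.56% and 31.3% of them, and T cells 0.523% and 14.7%. The part of RNA from lymphocytes in the Ltb of stromal and myeloid cells was not tested. Lta had 6 UMIs or 32.0 CPM (11.7 to 69.5) in germinal centre B-like cells of the colotomy library and 200 UMIs or 35.4 CPM (30.7 to 40.7) in those of the sham library, a ratio of 0.903 (0.327 to 2.0). In the sham library it stood at 29.5 CPM in B cell-like and 22.6 CPM in T cell-like cells, a T cell level no higher than the 22.7 CPM of erythroid-like cells, which should lack it. The 96 B cell-like and 65 T cell-like cells of the colotomy library held no Lta UMI, with Poisson intervals that reach 56.2 and 80.8 CPM, so a difference was not detectable at this depth. The sham level in germinal centre B-like cells was 120% of the B cell-like level, where B cell markers stood at 59.0%. The marker list holds Ighd and Fcer2a, which led the B cell-like clusters, so it does not gauge RNA from other cells there.

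Ltb stood at 372 CPM (217 to 596) in T cell-like cells of the colotomy library, from 17 UMIs, and at 432 CPM (419 to 445) in those of the sham library, from 4481. The ratio was 0.862 (0.502 to 1.38). B cell-like cells had 229 and 398 CPM, a ratio of 0.575 (0.322 to 0.950), beside summed B cell markers at 4162 and 7439 CPM. Germinal centre B-like cells had 186 and 260 CPM, a ratio of 0.717 (0.498 to 1.00). In epithelial-like cells, which should lack it, Ltb stood at 26.8 CPM in the colotomy library and 132 CPM in the sham library. That is 11.7% and 33.3% of the B cell-like level, beside B cell markers at 8.68% and 24.4%. With thinning to 500 UMIs, 21.5% (12.3 to 33.5) and 19.4% (18.6 to 20.3) of T cell-like cells had a Ltb UMI, against 1.38% and 7.22% of epithelial-like cells. Without thinning these shares were 26.2% and 41.1% of T cell-like cells and 2.63% and 25.3% of epithelial-like cells, at median depths of 635 and 1196 and of 845.5 and 1985.5 UMIs.

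Ltbr, the lymphotoxin receptor of stromal and epithelial cells, had 140 UMIs or 49.1 CPM (41.3 to 57.9) in fibroblast-like cells of the colotomy library and 286 UMIs or 29.8 CPM (26.5 to 33.5) in those of the sham library. The ratio was 1.65 (1.34 to 2.02). Epithelial-like cells had 52.5 and 28.1 CPM, a ratio of 1.87 (1.42 to 2.43), and goblet-like cells 58.8 and 50.7 CPM, a ratio of 1.16 (0.875 to 1.52). The epithelial-like cells lay in different clusters: 1084 and 718 were led by Dmbt1 and 384 and 1667 by Lypd8. Ltbr stood at 56.2 and 44.1 CPM in the Dmbt1-led cells, a ratio of 1.28 (0.914 to 1.77), and at 33.5 and 18.5 CPM in the Lypd8-led cells, a ratio of 1.81 (0.919 to 3.31). Lymphocytes held little: in B cell-like cells it had no UMI in the colotomy library and stood at 1.85 CPM in the sham library. Among fibroblast-like clusters the ratio was uneven. It was 3.36 (1.81 to 5.80) in cells led by Inmt, at 79.1 and 23.6 CPM, and 0.954 (0.594 to 1.48) in cells led by Pi16, at 34.2 and 35.8 CPM. Those led by Ptn had 52.1 and 35.4 CPM and those led by Adamdec1 46.6 and 32.7 CPM, with intervals of the ratio that reach below 1. The make-up of the class differed too: the Inmt-led cells numbered 264 and 2683, and the Ptn-led cells 2135 and 234.

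Tnfsf11, the ligand RANKL, was rare, with 10 UMIs in the colotomy library and 108 in the sham library. T cell-like cells held 56 of the sham UMIs, or 5.40 CPM (4.08 to 7.01), and 50 of these lay in the cluster led by Izumo1r, at 7.99 CPM (5.93 to 10.5). With thinning to 500 UMIs, none of the 65 T cell-like cells of the colotomy library held one and 0.286% (0.179 to 0.432) of those of the sham library did. At 65 cells, 3 counts of the total allow a share of up to 4.62% of cells with a UMI, so a difference was not detectable. Without thinning the shares were 0 and 0.701%, at median depths of 635 and 1196 UMIs. Fibroblast-like cells had 5 UMIs or 1.75 CPM in the colotomy library, all of them in the cluster led by Ptn, and 12 UMIs or 1.25 CPM in the sham library. Its signalling receptor Tnfrsf11a stood at 74.4 CPM in epithelial-like cells of the colotomy library and 50.3 CPM in those of the sham library, and at 74.3 and 35.8 CPM in macrophage-like cells.

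Tnfrsf11b, the decoy receptor of Tnfsf11, was a stromal gene and was higher in the colotomy library. Fibroblast-like cells had 303 UMIs or 106 CPM (94.6 to 119) in the colotomy library and 368 UMIs or 38.4 CPM (34.5 to 42.5) in the sham library, a ratio of 2.77 (2.37 to 3.23). The 8 summed fibroblast markers of these cells were higher too, at 43445 CPM in the colotomy library and 18573 CPM in the sham library. Whether Tnfrsf11b differed beyond a shift of the whole class was not tested. Stromal cells held 85.8% (81.9 to 89.1) and 87.0% (84.0 to 89.6) of its UMIs. All 4 fibroblast-like clusters had a ratio above 1. The cells led by Pi16 had 146 and 51.8 CPM, a ratio of 2.82 (2.20 to 3.61), and those led by Adamdec1 202 and 76.6 CPM, a ratio of 2.63 (1.65 to 4.07). The cells led by Ptn had 91.0 and 57.6 CPM, a ratio of 1.58 (1.04 to 2.49), and those led by Inmt 31.6 and 13.2 CPM, a ratio of 2.40 (0.846 to 5.56).

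Mesothelial-like cells, which line the peritoneum, had the highest Tnfrsf11b of any class in each library, at 129 CPM (78.8 to 199) from 20 UMIs in the colotomy library and 79.6 CPM (65.6 to 95.6) from 114 in the sham library. Their ratio was 1.62 (0.955 to 2.62). The interval did not overlap that of fibroblast-like cells in the sham library and did in the colotomy library. The Xist level of these cells was 1736 CPM for colotomy and 1.40 CPM for sham, and the part of sex was not tested. With thinning to 500 UMIs, 5.06% (4.36 to 5.84) of fibroblast-like cells had a Tnfrsf11b UMI in the colotomy library and 1.72% (1.40 to 2.10) in the sham library, and without thinning 7.21% and 5.18%. B cell-like cells had none in 96 cells of the colotomy library and a thinned share of 0.0502% in the sham library, at median depths of 592 and 1003 UMIs. Neutrophil-like cells had 34.8 and 10.1 CPM, or 32.7% and 26.4% of the fibroblast-like level, and fibroblast markers stood there at 32.6% and 15.1%.

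**Figure D3:**
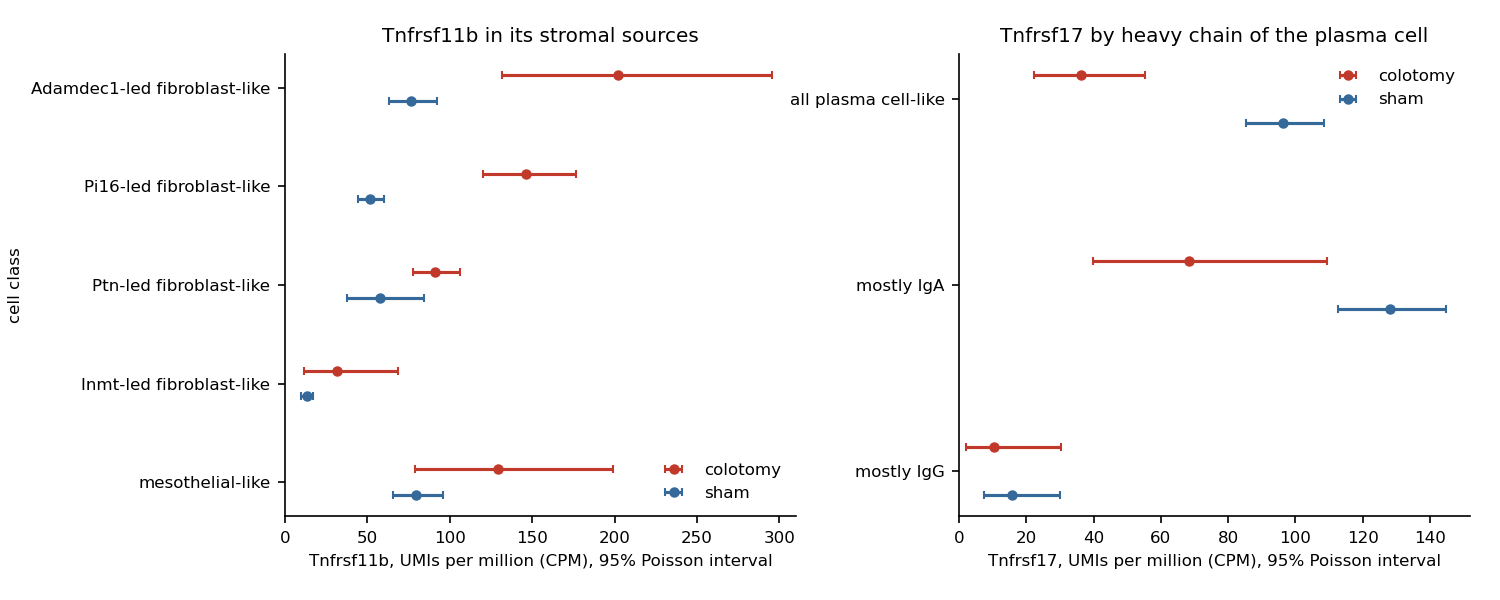
Levels in CPM of Tnfrsf11b in stromal clusters and of Tnfrsf17 in plasma cell-like groups, colotomy in red above sham in blue, with exact Poisson intervals at 95%. Tnfrsf11b is higher in the colotomy library in the cells led by Pi16, at 146 and 51.8 CPM, and Tnfrsf17 is lower there in the plasma cell-like cells of mostly IgA, at 68.2 and 128 CPM.

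In fibroblast-like cells all 10 members had at least 10 UMIs over both libraries. Tnf, Ltbr, Tnfrsf11b and Tnfsf13 were at least 1.5-fold higher, where 17.1% of all 14542 genes measured were, and Lta, Ltb, Tnfrsf13c and Tnfrsf17 were lower, where 19.5% were. The 4 lower genes belong to lymphocytes or plasma cells, and B cell markers stood at 18.3% of the B cell-like level in fibroblast-like cells of the colotomy library and at 35.0% in those of the sham library. Summed plasma cell markers of fibroblast-like cells went the other way, at 1298 CPM in the colotomy library and 982 CPM in the sham library.

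Tnfsf13b, the B cell survival factor BAFF, came mainly from stromal cells. They held 59.2% (46.8 to 70.7) of its 71 UMIs in the colotomy library, where they were 43.6% of cells, and 54.7% (48.6 to 60.6) of its 278 UMIs in the sham library, where they were 21.3%. Myeloid cells held 14.1% (6.97 to 24.4) and 16.9% (12.7 to 21.8). Fibroblast-like cells had 36 UMIs or 12.6 CPM (8.84 to 17.5) in the colotomy library and 127 UMIs or 13.2 CPM (11.0 to 15.8) in the sham library. The ratio was 0.953 (0.639 to 1.39). Mesothelial-like cells had 5 UMIs or 32.3 CPM and 15 UMIs or 10.5 CPM, a ratio of 3.08 (0.876 to 8.92), and neutrophil-like cells 14.3 and 20.2 CPM, from 7 and 4 UMIs. Macrophage-like cells had no UMI in 484 cells of the colotomy library, with a Poisson interval that reaches 10.1 CPM, and 22 UMIs or 6.40 CPM in the sham library, so a difference was not detectable. With thinning to 500 UMIs, 0.629% (0.395 to 0.951) and 0.671% (0.473 to 0.923) of fibroblast-like cells had a Tnfsf13b UMI, and without thinning 1.03% and 2.27%, against thinned shares of 0 in 65 and 0.0779% of 7698 T cell-like cells.

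Tnfsf13, the plasma cell survival factor APRIL, was spread over myeloid, epithelial and stromal cells. In the annotation its gene (chr11:69682846-69685784, minus strand) lies within the read-through gene Tnfsfm13 and next to Tnfsf12, so its reads may be shared with them and its values are uncertain. Macrophage-like cells had 13 UMIs or 35.8 CPM (19.0 to 61.2) in the colotomy library and 146 UMIs or 42.5 CPM (35.9 to 50.0) in the sham library, a ratio of 0.842 (0.438 to 1.49). That direction depended on the clustering: the ratio was 2.09 at a coarser resolution and 1.69 when the 10 genes could enter it. The cluster led by Mmp12 and Spp1 had 34 UMIs or 96.7 CPM (67.0 to 135) in the colotomy library and 7 UMIs or 31.5 CPM (12.7 to 64.9) in the sham library, a ratio of 3.07 (1.34 to 8.21). This ratio had no value at the coarser resolution or when the 10 genes could enter the clustering. Over all myeloid cells it stood at 39.5 and 20.4 CPM, a ratio of 1.94 (1.43 to 2.58).

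Goblet-like cells, which secrete mucus, had 33.9 CPM of Tnfsf13 in the colotomy library and 26.4 CPM in the sham library. That is 94.8% and 62.1% of the macrophage-like level, where macrophage markers stood at 2.17% and 1.26%. Epithelial-like cells had 28.1 and 13.6 CPM, a ratio of 2.07 (1.41 to 2.99), which was 1.51 (0.924 to 2.45) in the Dmbt1-led and 2.25 (0.955 to 4.73) in the Lypd8-led cells. Fibroblast-like cells had 17.5 and 8.24 CPM, a ratio of 2.13 (1.46 to 3.07). Vascular endothelial-like cells had 8 UMIs or 58.8 CPM and 32 UMIs or 17.4 CPM, a ratio of 3.38 (1.35 to 7.50). Epithelial cells held 40.4% (34.0 to 47.2) of the gene's UMIs in the colotomy library and 26.2% (22.9 to 29.7) in the sham library, myeloid cells 27.1% (21.4 to 33.4) and 32.6% (29.0 to 36.3), and stromal cells 30.7% and 25.3%. Of the UMIs of all genes, epithelial cells held 34.0% and 13.7%, myeloid cells 17.7% and 15.2%, and stromal cells 37.9% and 21.3%.

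In epithelial-like cells 9 of the 10 members had at least 10 UMIs over both libraries. Tnf, Ltbr, Tnfrsf11b, Tnfsf13b and Tnfsf13 were at least 1.5-fold higher, where 23.1% of all 13523 genes measured were, and Lta, Ltb, Tnfrsf13c and Tnfrsf17 were lower, where 16.0% were. Tnfrsf11b stood there at 9.76 CPM in the colotomy library and 2.40 CPM in the sham library, or 9.19% and 6.25% of the fibroblast-like level, and fibroblast markers stood at 7.83% and 5.94%. The ratio of Tnfsf13b, from 14 and 34 UMIs, was 1.57 (0.780 to 3.01). The count was smaller within clusters of the class, whose make-up differed between libraries. In the Dmbt1-led cells 3 of 8 members were higher and 3 lower, where 2042 and 1782 of all 11896 genes measured were. In the Lypd8-led cells 4 of 8 were higher and 3 lower, where 2898 and 2568 of all 12097 were. The median log2 ratio of the members was 0.65 in the whole class, 0.26 in the Lypd8-led cells and -0.0022 in the Dmbt1-led cells. Over all genes measured the median was 0.14, 0.014 and 0.065.

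**Figure D4:**
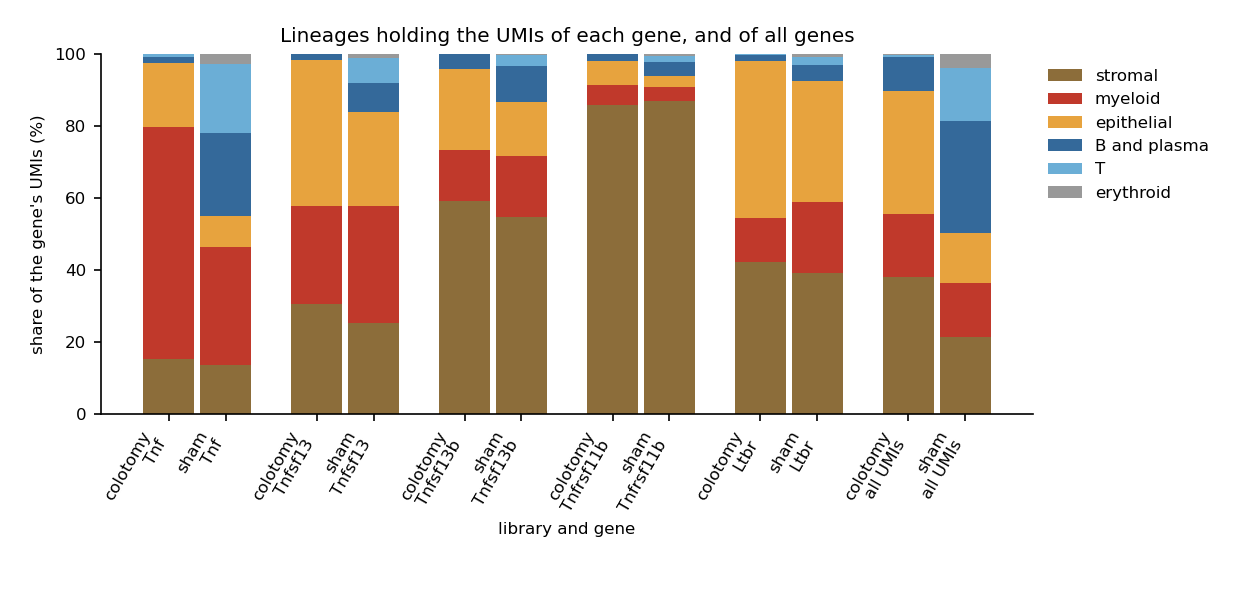
Share of the UMIs of Tnf, Tnfsf13, Tnfsf13b, Tnfrsf11b and Ltbr, and of all genes together, held by each lineage (colours), in percent, with colotomy left of sham. Stromal cells hold 59.2% and 54.7% of Tnfsf13b, beside 37.9% and 21.3% of all UMIs. Epithelial cells hold 40.4% and 26.2% of Tnfsf13, beside 34.0% and 13.7% of all UMIs.

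Tnfrsf13c, the BAFF receptor, was at about the same level in B cell-like cells of both libraries: 17 UMIs or 259 CPM (151 to 415) in the colotomy library and 3461 UMIs or 256 CPM (247 to 264) in the sham library. The ratio was 1.01 (0.590 to 1.63), an interval that does not exclude a change of 1.5-fold. Summed B cell markers of the B cell-like cells were themselves uneven, at 4162 CPM in the colotomy library and 7439 CPM in the sham library. Germinal centre B-like cells had 192 and 230 CPM, a ratio of 0.834 (0.582 to 1.16). With thinning to 500 UMIs, 12.5% (6.63 to 20.8) and 12.0% (11.4 to 12.6) of B cell-like cells had a UMI, against 0.50% and 2.73% of epithelial-like cells; without thinning it was 14.6% and 24.0% against 0.750% and 11.1%.

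Outside B cells the level of Tnfrsf13c lay near that of B cell markers in most classes of the sham library. As a share of the B cell-like level it was 19.7% in epithelial-like cells with markers at 24.4%, 48.6% in T cell-like cells with markers at 48.4%, and 65.7% in smooth muscle or pericyte-like cells with markers at 67.4%. Germinal centre B-like cells stood above the markers, at 89.9% with markers at 59.0%. The marker list holds genes that led the B cell-like clusters, so it does not gauge RNA from other cells in germinal centre B-like cells. The cluster led by Mmp12 and Spp1 also stood above the markers, at 42.2% with markers at 27.0%. In the colotomy library that cluster stood at 5.49% with markers at 11.4%, and germinal centre B-like cells at 74.0% with markers at 74.7%. Epithelial-like cells stood there at 3.30% with markers at 8.68%. T cell-like cells stood at 16.9% with markers at 47.4%, and smooth muscle or pericyte-like cells at 25.2% with markers at 26.0%. Plasma cell-like cells had 60.2 CPM in the colotomy library and 88.3 CPM in the sham library, or 23.2% and 34.5% of the B cell-like level, with markers at 21.1% and 29.9%.

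**Figure D5:**
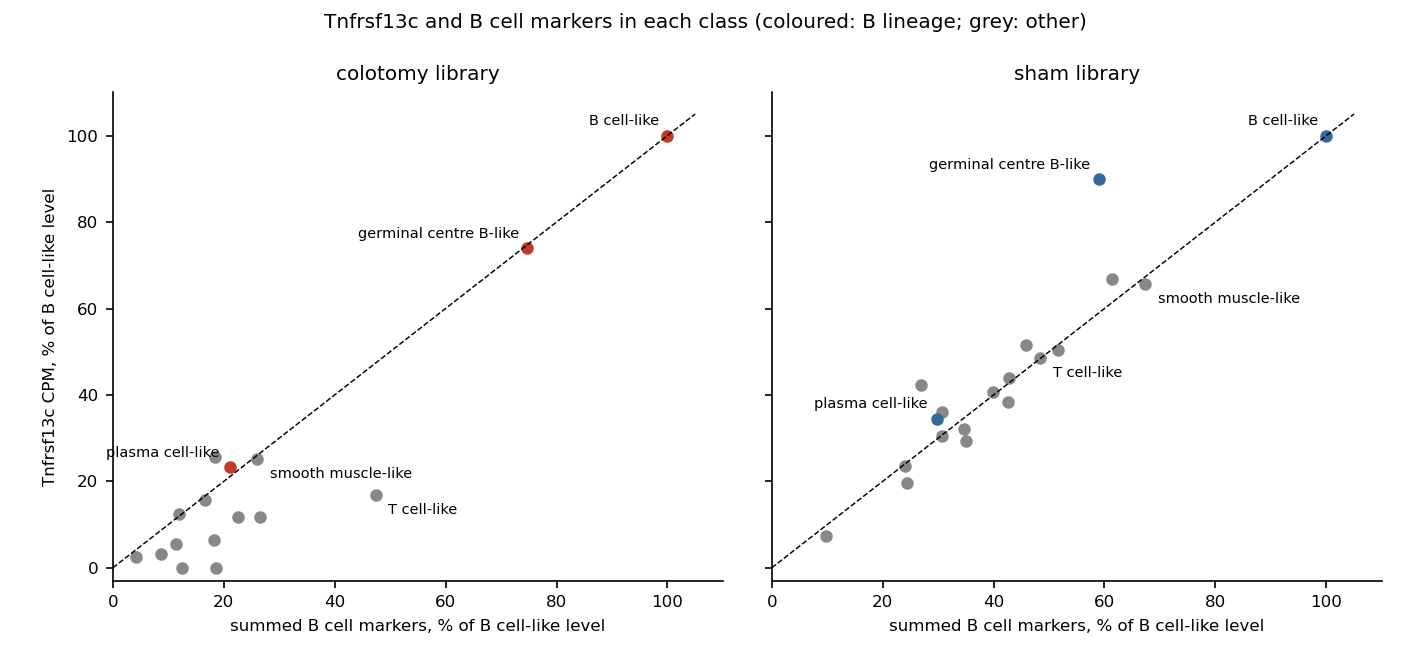
Tnfrsf13c (vertical) against summed B cell markers (horizontal), each as a percentage of its level in B cell-like cells, in the colotomy library (left) and the sham library (right), with 1 point per class. The B lineage is coloured, and the dashed line marks equal percentages. In the sham library T cell-like cells lie at 48.6% and 48.4% and germinal centre B-like cells at 89.9% and 59.0%.

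Tnfrsf17, the receptor through which APRIL keeps plasma cells alive, was lower in plasma cell-like cells of the colotomy library. They had 21 UMIs in 540 cells or 36.1 CPM (22.4 to 55.2) in the colotomy library and 275 UMIs in 976 cells or 96.3 CPM (85.3 to 108) in the sham library, a ratio of 0.375 (0.229 to 0.585). The mix of antibody classes differed. Cells of mostly IgA numbered 231 and 657 and had 68.2 CPM (39.7 to 109) and 128 CPM (113 to 145), a ratio of 0.533 (0.306 to 0.870). Cells of mostly IgG numbered 275 and 197 and had 10.3 and 15.8 CPM from 3 and 9 UMIs, a ratio of 0.652 (0.114 to 2.61). IgG cells were low in both libraries, from few UMIs, and were more of the class in the colotomy library. The ratio of the IgA cells was above that of the whole class, with overlapping intervals. The part of the mix in the class ratio was not tested.

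With thinning to 500 UMIs, 1.67% (0.765 to 3.14) of plasma cell-like cells had a Tnfrsf17 UMI in the colotomy library and 5.23% (3.92 to 6.81) in the sham library. Without thinning it was 3.70% and 20.9%, at median depths of 973 and 2627.5 UMIs. Among epithelial-like cells, at median depths of 845.5 and 1985.5, the thinned share was 0 of 1600, where 3 counts of the total allow up to 0.188%, and 0.0390%. Their unthinned shares were 0.0625% and 0.507%. Tnfrsf13b (TACI), the receptor shared by BAFF and APRIL and read with its values known, stood at 169 CPM in plasma cell-like cells of the colotomy library and 172 CPM in those of the sham library, a ratio of 0.981 (0.781 to 1.22). It stood at 198 and 200 CPM in B cell-like cells, and at 16.5 and 57.4 CPM in epithelial-like cells. The part of lymphocyte RNA in the plasma cell-like levels was not tested.

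In plasma cell-like cells 7 of the 10 members had at least 10 UMIs over both libraries. Ltbr, Tnfrsf11b and Tnfsf13 were at least 1.5-fold higher, where 23.4% of all 10740 genes measured were, and Lta, Ltb and Tnfrsf17 were lower, where 19.9% were. Some of these calls rest on few UMIs. Ltbr had 6 in each library, Tnfrsf11b had 7 in the colotomy library and 4 in the sham library, and Ltb had 26 and 362. Lta had 0 and 23, and was called lower with the 0 set to a floor of 3 counts. Fibroblast markers in these cells stood at 10.1% of the fibroblast-like level in the colotomy library and 2.83% in the sham library, and Tnfrsf11b at 11.3% and 3.65%.

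Of the other genes of the pathway, NF-kappaB signalling genes were mixed. In macrophage-like cells 4 of 18 were at least 1.5-fold higher and 3 lower, where 17.7% and 23.3% of all genes measured were. The median of their log2 ratios was 0.11, against -0.11 over all genes measured. Nfkbia, which holds NF-kappaB in the cytoplasm, stood at 492 CPM in the colotomy library and 184 CPM in the sham library, a ratio of 2.68 (2.26 to 3.17). Tnfaip3, which ends the signal, stood at 140 and 41.9 CPM, a ratio of 3.35 (2.38 to 4.64). In fibroblast-like cells none of the 18 was higher and 4 were lower, where 17.1% and 19.5% of all genes were, with a median of -0.30 against -0.03 over all genes. Birc3, a ubiquitin ligase of the receptor complexes, stood at 31.9 and 79.1 CPM there. In plasma cell-like cells none was higher and 6 were lower, where 23.4% and 19.9% of all genes were, with a median of -0.25 against 0.05.

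Among the other ligands, Tnfsf9 of macrophage-like cells stood at 44.0 CPM from 16 UMIs in the colotomy library and 3.78 CPM from 13 in the sham library, a ratio of 11.6 (5.25 to 26.3). It is the ligand of 4-1BB on T cells, and was the 1 higher of 4 measured, with 1 lower, where 17.7% and 23.3% of all genes measured were. Of the other receptors 4 of 15 were higher and 4 lower in macrophage-like cells, against 17.7% and 23.3% of all genes, and 8 of 19 and 6 in fibroblast-like cells, against 17.1% and 19.5%. Tnfrsf21 of fibroblast-like cells stood at 10.5 and 3.75 CPM, a ratio of 2.80 (1.67 to 4.68), while Cd40, a receptor of B cells and macrophages, stood at 3.86 and 20.4 CPM.

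Of the lymphotoxin target genes, 1 of 5 measured was higher in fibroblast-like cells and none lower, a share near the 17.1% of all genes that were higher. This was Vcam1, an adhesion molecule, at 44.2 CPM in the colotomy library and 24.4 CPM in the sham library, a ratio of 1.81 (1.45 to 2.26). In macrophage-like cells Vcam1 stood at 165 and 60.2 CPM, a ratio of 2.74 (2.02 to 3.67). It was the 1 higher of 4 measured with 1 lower, where 17.7% and 23.3% of all genes measured were. Of other survival factors, Il6 in fibroblast-like cells had 14 UMIs or 4.91 CPM and 6 UMIs or 0.626 CPM, a ratio of 7.85 (2.83 to 24.9), as 1 of 2 higher of 7 measured with 3 lower, against 17.1% and 19.5% of all genes.

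Of the survival genes inside B and plasma cells, 2 of 10 measured were higher in plasma cell-like cells and 4 lower, where 23.4% and 19.9% of all genes were, with a median of -0.09 against 0.05. Xbp1, the transcription factor of antibody secretion, stood at 2724 CPM in the colotomy library and 916 CPM in the sham library, a ratio of 2.97 (2.79 to 3.17). It was also higher in fibroblast-like, macrophage-like and epithelial-like cells, with ratios of 1.87, 2.27 and 2.39. Prdm1, its partner in plasma cells, stood at 62.0 and 110 CPM, a ratio of 0.565 (0.389 to 0.799), and Bcl2 at 31.0 and 75.3 CPM, a ratio of 0.411 (0.239 to 0.666).

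The genes of most like pattern were taken by Pearson correlation of log2(CPM + 1) over 35 sums, 1 per class and library with at least 50 cells, which share libraries, depth and free RNA. For Tnfrsf11b they were Plat, Wnt5a and Dcn, with r of 0.948, 0.944 and 0.941. For Tnfsf13b they were Zbtb7c, Ror1 and Enpep, at 0.825, 0.821 and 0.786, and for Tnfsf13 Gab1, Mertk and Zfp704, at 0.891, 0.864 and 0.842. For Tnf they were Ifrd1, Siglece and Slc7a11, at 0.763, 0.729 and 0.704, and for Ltbr Fnbp1l, Zfhx3 and Ctbp2, at 0.865, 0.865 and 0.845. Ltb was most like Cd37, Stk17b and Pax5, at 0.961, 0.952 and 0.933, and Tnfrsf13c most like Clec2i and Ms4a1, at 0.886 and 0.872. Tnfrsf17 was most like Ighv3-6, Igkc and Jchain, at 0.814, 0.807 and 0.804, and Lta most like Gm47664, Rpl21 and Xkrx, at 0.850, 0.847 and 0.843. Tnfsf11 had too few UMIs for the comparison.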

How the data were processed

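Single-cell RNA was counted in 2 libraries of mouse cells, 1 per group. The deposited values are raw counts of UMIs per gene and barcode, made with Cell Ranger 6.0.0 per the file headers; mm10 and STAR 2.5.1b are named per the submitters' processing notes. All kept cells were then clustered jointly, leaving the 10 genes out (scanpy 1.11.5, log counts scaled to 10000 per cell, 2000 genes of highest variance with library as batch, 30 principal components, 15 neighbours, Leiden resolution 1 with igraph 0.11.9), which gave 26 clusters. A marker counted when found in at least 10% of a cluster's cells, at 2 times the median CPM of other clusters and at 20% of the highest cluster. A cluster took the name of the list with the largest share of markers met, from at least 3, unless another list led its top 10 genes; this rule was chosen after seeing the data. Scrublet called 0 doublets in either library and has not worked here, so no doublets were removed.

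UMIs were summed per class and library, and classes with at least 50 cells in both were compared; a count of 0 takes a floor of 3 counts. Intervals came from scipy 1.17.1 and the calculation was tested on simulated data. The 10 genes and the lists were chosen with earlier results of these data known. All 10 are named; from each further list, up to 3 genes of largest and 3 of smallest ratio qualified in each class if they had at least 20 UMIs and were 1.5-fold apart, and those described are among them. Partner receptors (Tnfrsf1a, Tnfrsf1b, Tnfrsf11a, Tnfrsf13b) and the immediate early genes were added after their values could be seen. For each gene with at least 200 UMIs, the 3 of most like pattern are named, except 1 that is not reported here.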

Additional observations from a re-analysis of the deposited data

How the results depend on the processing

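Of 104 values of 13 ratios under other settings, 95 stayed within the counting interval, 93 stayed on the same side of 1 and 9 moved; the cause was not tested. Requiring at least 1000 gene UMIs and 500 genes gave 2.27 for Tnfrsf11b in fibroblast-like cells and 0.181 for Tnfrsf17 in plasma cell-like cells. At Leiden resolution 0.5 the macrophage-like ratio was 6.63 for Tnf and 2.09 for Tnfsf13, at resolution 2 it was 4.59 for Tnf, and with the 10 genes among the variable genes it was 5.55 and 1.69. Leaving out likely doublets, 1709 and 8103 cells, gave 2.26 for Tnfrsf11b in fibroblast-like cells. Subtracting the level in classes taken as background, an alternative chosen after seeing the data, gave 25.0 for Tnf. For Tnf these were B cell-like, germinal centre B-like and T cell-like cells. They held 36, 15 and 46 Tnf UMIs in the sham library and 2, 0 and 1 in the colotomy library. Whether these UMIs are background was not tested, so 25.0 may subtract Tnf of the cells themselves. At 2-fold in place of 1.5-fold, list genes higher in colotomy numbered 8 in place of 13 in fibroblast-like cells and 12 in place of 19 in macrophage-like cells. Restricting to cells that had Y-linked UMIs but lacked Xist left too few cells for 8 of the ratios, Tnf in macrophage-like cells among them. Free RNA could not be estimated from barcodes under 500 UMIs, because the sham library holds 0 of them, and that alternative was not run. Of 23 thinned shares, 18 moved beyond their counting interval at 1000 in place of 500 UMIs. The Tnfsf13 ratio in the cluster led by Mmp12 and Spp1 had no value at resolution 0.5 or with the 10 genes among the variable genes. No paired analysis was possible because each group has 1 library. Few lymphocytes in the colotomy library limit the values of Lta, Ltb, Tnfsf11 and Tnfrsf13c.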
